A study of Mus musculus with 4 samples.

Results

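The genes described here are 10 immediate early transcription factors: the orphan nuclear receptors Nr4a1, Nr4a2 and Nr4a3, the zinc finger factors Egr1, Egr2 and Egr3, the bHLH-PAS factor Npas4, and the AP-1 subunits Fos, Fosb and Junb. Every probe set listed with a member alone was taken, which gave 19 probe sets of the 45101 on the array. Of these 19, 14 passed the filter on low intensity, at least 1 for each of the 10 genes, and 5 did not. The filter kept 22519 probe sets for testing.

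RNA came from mouse spleen cells sorted by CD4, Foxp3 and Nrp1, the surface co-receptor neuropilin-1, and was measured on 4 one-colour arrays. The mice of all 4 arrays carried a Foxp3 GFP reporter on the Balb/c background, and the cells of both groups were labelled CD4+ Foxp3+, the phenotype of regulatory T cells. The groups were Nrp1-negative cells (2 arrays) and Nrp1-positive cells (2 arrays), each with a replicate 1 and a replicate 2, from mice of 4 to 6 weeks, except 1 array labelled 4 to 8 weeks. No treatment or time point is labelled, and the labels do not say how many mice were pooled or whether replicates are different animals. P-values therefore measure the spread between these arrays, which may be technical. In fits with the replicate number as a term, the difference between the replicate numbers is left out of that spread.

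Engagement of the T cell receptor (TCR) raises calcium, which activates calcineurin, NFAT and MEF2, and activates the ERK kinases, which act on SRF and its partner factors. These inputs switch on the immediate early genes without new protein synthesis, and the transcripts are short-lived, so their level follows recent signalling. Nr4a1 is widely used as a reporter of TCR signal strength, Nr4a factors help to maintain Foxp3 expression in regulatory T cells, Egr2 and Egr3 restrain effector responses, and Fos with Jun proteins forms AP-1, the partner of NFAT on many promoters.

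Sequence upstream of these genes was taken from the RefSeq promoter table (GRCm38.p6), which matched 8 of the 10 genes through 12 start sites. Each window was searched over the 250 bases before the start, on both strands, for the 5-base core of the cAMP response element, TGACG or its reverse complement CGTCA, the element bound by CREB and related factors. The core was in 10 of the 12 windows and in at least 1 window of all 8 genes, against 17.8% of the 32851 windows in the table. The full element, TGACGTCA, was in 0 of the 12 windows (1.55% of all), as were the AP-1 site TGANTCA (6.75% of all) and the Nr4a site AAAGGTCA (1.34% of all). The Egr site GCGNGGGCG was in 3 windows, those of Fosb, Nr4a1 and Nr4a2 (4.70% of all), and the CArG box, the site of SRF, was in 4 windows, all of Egr2 (1.47% of all), whose windows overlap in part. The full element contains the core, and these matches describe the letters only. The 190 bases before the start are shown for 4 genes that stand for the patterns in the data: Fos and Junb, which had the lowest adjusted p-values of the members between the replicate numbers, Npas4, whose group difference was the widest of the members, and Nr4a2, whose probe sets disagreed. Each is written 5′ to 3′ on the strand of the gene, with the core in capitals on either strand.
Fos, chr12:85473700-85473889, plus strand: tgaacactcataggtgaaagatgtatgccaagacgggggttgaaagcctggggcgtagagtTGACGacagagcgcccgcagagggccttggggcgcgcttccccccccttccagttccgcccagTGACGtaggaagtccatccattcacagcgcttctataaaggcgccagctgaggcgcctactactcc
Junb, chr8:84978749-84978938, minus strand: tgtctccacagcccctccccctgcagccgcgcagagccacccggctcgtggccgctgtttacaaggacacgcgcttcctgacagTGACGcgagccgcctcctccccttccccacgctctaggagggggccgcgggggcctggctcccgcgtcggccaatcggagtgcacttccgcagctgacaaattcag
Npas4, chr19:4989972-4990161, minus strand: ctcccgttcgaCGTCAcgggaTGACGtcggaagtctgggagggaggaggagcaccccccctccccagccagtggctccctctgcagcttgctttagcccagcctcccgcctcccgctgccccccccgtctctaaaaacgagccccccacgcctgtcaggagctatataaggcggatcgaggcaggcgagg
Nr4a2, chr2:57124004-57124193, minus strand: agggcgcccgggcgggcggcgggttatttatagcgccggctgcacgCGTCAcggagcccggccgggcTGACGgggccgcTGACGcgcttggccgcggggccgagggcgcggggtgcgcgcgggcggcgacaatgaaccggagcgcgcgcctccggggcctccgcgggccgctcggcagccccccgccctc
The Fos window holds cores at positions -129 and -66 from the start, the Junb window at -106 and the Npas4 window at -179 and -169.

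The deposited intensities of replicate 1 and replicate 2 were on different scales. The 2% trimmed mean was 500.003 on both replicate 1 arrays and 150.001 on both replicate 2 arrays, so replicate 2 was multiplied by 3.33. All intensities below are after this scaling, in arbitrary units, and all differences are on the scale of log2(intensity + 18.3), which understates the change of dim probe sets. Replicate numbers differed in RNA measures too: the 3′ to 5′ ratio of the Gapdh control probe sets was 1.74 and 1.54 on the replicate 1 arrays and 0.763 and 0.711 on the replicate 2 arrays. The labels of 1 array conflict: its title reads Nrp1-negative, replicate 1, while its other labels name Nrp+ cells, and it is the array labelled 4 to 8 weeks. Its Nrp1 intensity was 339.2, against 1223 on the other Nrp1-negative array and 9344 and 7745 on the Nrp1-positive arrays. The title was kept as its group. Of the regulatory T cell markers, limma with the replicate number as a block called Nrp1 (log2 difference 3.68, adjusted p 0.00187) and Ikzf2, a transcription factor of these cells (0.83, adjusted p 0.0443), higher in Nrp1-positive cells. That fit called 0.209% of all tested probe sets, and Nrp1 is the marker the cells were sorted by. Neither gene was called without the block, or with the block and no mean-variance trend, where the smallest adjusted p was 0.711. Foxp3 itself did not pass the filter, with intensities of 2.16 to 36.4 on the 4 arrays, whereas 8 of the 9 T cell and regulatory T cell markers did.

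**Figure D1:**
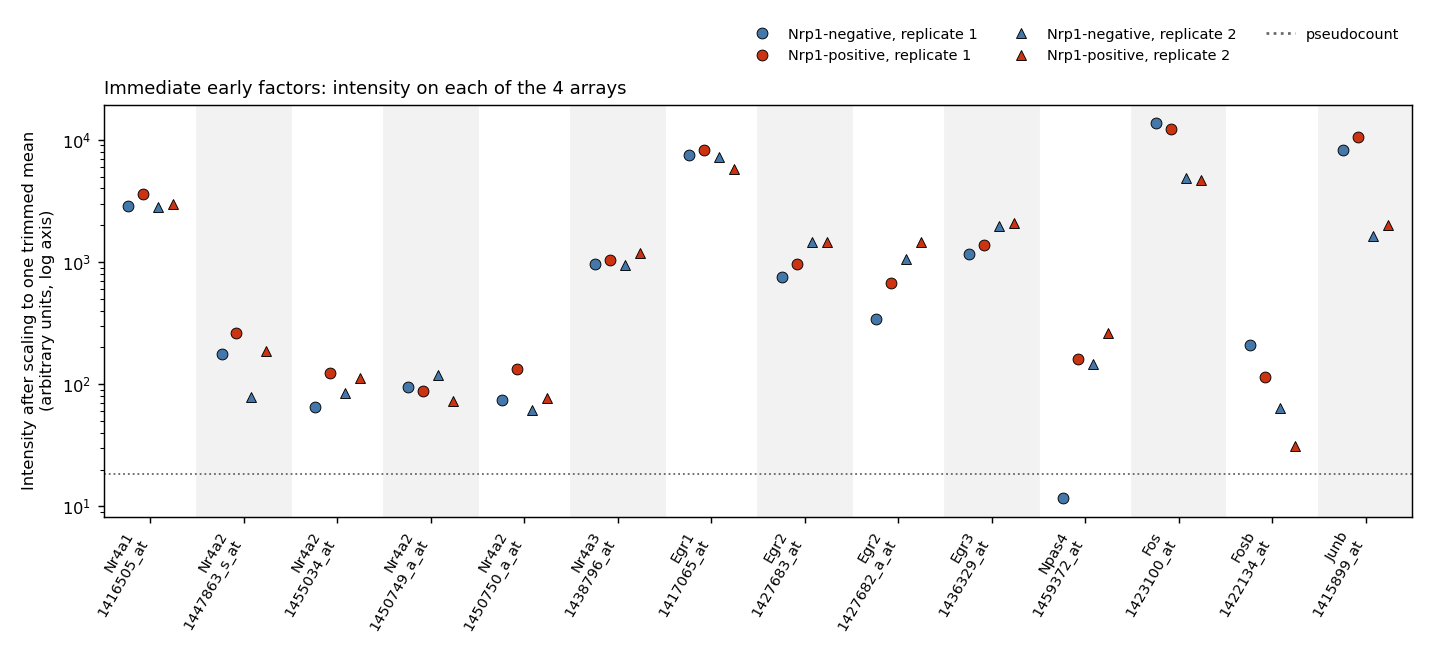
Intensity of the 14 tested probe sets (log axis, arbitrary units after scaling to one trimmed mean) on each of the 4 arrays, with Nrp1-negative arrays in blue, Nrp1-positive arrays in red, replicate 1 as circles, replicate 2 as triangles and the pseudocount of 18.3 as a dotted line. Circles and triangles separate for Fos, Fosb and Junb (circles higher) and for Egr2 and Egr3 (triangles higher), while Npas4 on the Nrp1-negative replicate 1 array, at 11.7, is the 1 point below the dotted line.

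Nrp1-positive and Nrp1-negative cells were compared first. No member passed the test. By direction, 10 of the 14 probe sets were higher in Nrp1-positive cells in both replicate numbers, 3 were lower in both and 1, Egr1, was opposite. Over all tested probe sets, 28.1% were higher in Nrp1-positive cells in both replicate numbers. In replicate 2 alone, which leaves out the array with conflicting labels, 10 of 14 were higher. The share of all tested probe sets higher in replicate 2 alone is not given, so this count has no background. The median difference in replicate 2 was 0.18 over the 14 and 0.03, also above 0, over all tested. With both replicate numbers, the median difference was 0.22 over the 14 member probe sets and 0.01 over all tested. With limma and no block, 0 of 22519 probe sets were called at an adjusted p of 0.05 (0.00%), 233 had an unadjusted p below 0.05, and the adjusted p was 1 for every member probe set. With the replicate number as a block, limma called 47 probe sets (0.209%), 29 higher and 18 lower, of which 0 were members. In that fit 1546 of all 22519 probe sets had an unadjusted p below 0.05, 4 of them member probe sets. The 4 were Nr4a2 1447863_s_at, Egr2 1427682_a_at, Npas4 and Junb. The blocked fit without the mean-variance trend called 0 probe sets, with a smallest adjusted p of 0.711 and 1495 unadjusted p-values below 0.05. An exact permutation test of 2 arrays against 2 cannot give a two-sided p below 0.333. The standard errors, intervals and adjusted p-values of single genes in this comparison are from the limma fit with the block.

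For the Nr4a receptors, ligand-independent activators induced early after TCR signals, the intensities of the tested probe sets did not overlap between the groups, but in both directions for Nr4a2. Nr4a1 was at 2853 and 2797 on the Nrp1-negative arrays (replicate 1, then 2) and at 3619 and 2987 on the Nrp1-positive arrays. Both Nrp1-positive arrays were above both Nrp1-negative ones, by 0.34 in replicate 1 and 0.09 in replicate 2. The mean difference was 0.22 (SE 0.12, 95% interval -0.05 to 0.48, n = 2 arrays a group), with an adjusted p of 0.810.

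Nr4a3 was measured by the probe set 1438796_at at 957.5 and 951.5 on the Nrp1-negative arrays and at 1040 and 1193 on the Nrp1-positive arrays. Here too the groups did not overlap, with differences of 0.12 and 0.32, a mean of 0.22 (SE 0.14, 95% interval -0.10 to 0.53) and an adjusted p of 0.865. The other Nr4a3 probe sets, 1421079_at and 1421080_at, were dim (13.1 to 41.3) and were not tested. Of these, 1421079_at was lower in Nrp1-positive cells without overlap, at 26.1 and 41.3 against 15.4 and 14.0, the opposite direction to 1438796_at. The groups of 1421080_at overlapped.

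Nr4a2, which has 6 probe sets, gave no single answer. The probe set 1447863_s_at was at 176 and 78.3 on the Nrp1-negative arrays and at 261.6 and 188.4 on the Nrp1-positive arrays. The groups did not overlap and the mean difference was 0.81 (SE 0.30, 95% interval 0.15 to 1.47), with an adjusted p of 0.552. Probe set 1455034_at was at 65.1 and 85.0 against 124.1 and 111.5 (mean difference 0.55, adjusted p 0.861). Probe set 1450750_a_at was at 73.5 and 61.9 against 132.4 and 77.6 (0.49, adjusted p 0.891). Probe set 1450749_a_at went the other way, at 93.9 and 118.6 against 88.6 and 72.5 (-0.33, adjusted p 0.956). Nr4a2 probe sets 1433422_at (26.2 to 66.0), whose groups overlapped, and 1433423_at (3.73 to 13.6), which was lower in Nrp1-positive cells without overlap, were below the filter. Thus 3 of the 4 tested probe sets of this gene were higher in Nrp1-positive cells and 1 was lower, and the groups did not overlap for any of the 4. Probe set 1450750_a_at had a mean of only 67.7 in Nrp1-negative cells. That is below the mean of Ier3 over all arrays (69.6), a gene the filter left out. Its place among the tested probe sets thus rests on the Nrp1-positive arrays, where it was higher.

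Npas4 is a calcium-dependent factor best known from neurons, where activity induces it. Its probe set 1459372_at was at 11.7 and 147.5 on the Nrp1-negative arrays and at 161.8 and 264 on the Nrp1-positive arrays. The groups did not overlap, and the Nrp1-negative replicate 1 array stood far below the other 3, under the pseudocount of 18.3. The difference was 2.58 in replicate 1 and 0.77 in replicate 2, with a mean of 1.68 (SE 0.43, 95% interval 0.71 to 2.64) and an adjusted p of 0.260. Without the Nrp1-negative replicate 1 array, whose labels conflict, the difference was 0.44, and without the Nrp1-negative replicate 2 array it was 2.91. With the array of conflicting labels counted as Nrp1-positive it was -0.53, the opposite direction. These fits had no block and unequal groups, so their differences also contain part of the difference between the replicate numbers.

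The groups of the Egr factors overlapped. Egr1, an early ERK target, was at 7495 and 7278 on the Nrp1-negative arrays and at 8238 and 5767 on the Nrp1-positive arrays. Nrp1-positive was the higher in replicate 1 (0.14) and the lower in replicate 2 (-0.33), and the mean of -0.10 had a 95% interval of -0.40 to 0.20 and an adjusted p of 0.974. Egr2 differed between its probe sets in size: 1427682_a_at gave 0.94 and 0.46, a mean of 0.70 (SE 0.17, 95% interval 0.32 to 1.08, adjusted p 0.222), whereas 1427683_at gave 0.37 and 0.02, a mean of 0.19 (adjusted p 0.893). Egr3, measured by 1436329_at, differed by 0.23 and 0.07 (mean 0.15, adjusted p 0.923), and its other probe set, 1421486_at, was below the filter, at no more than 87.2.

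The AP-1 subunits showed differences of either sign that were close to equal in the 2 replicate numbers. Junb, which often restrains Jun activity, was higher in Nrp1-positive cells by 0.36 and 0.30, a mean of 0.33 (SE 0.11, 95% interval 0.08 to 0.57, adjusted p 0.496). Fos differed by -0.16 and -0.04, a mean of -0.10 (95% interval -0.36 to 0.15, adjusted p 0.960). Fosb, a dim probe set, differed by -0.76 and -0.74, a mean of -0.75 (95% interval -1.53 to 0.03, adjusted p 0.745). For these subunits the groups overlapped, because each group spanned the gap between its replicate numbers.

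Across the tested member probe sets, the groups did not overlap for 6 that were higher in Nrp1-positive cells and for 1 that was lower. Among all tested probe sets these shares were 11.5% and 8.50%. The 6 were those of Nr4a1, Nr4a3 and Npas4 and 3 of Nr4a2, and the 1 was the remaining tested probe set of Nr4a2. The 6 include 1450750_a_at, which passed the filter through its Nrp1-positive arrays, and it is also among the 10 higher in both replicate numbers.

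**Figure D2:**
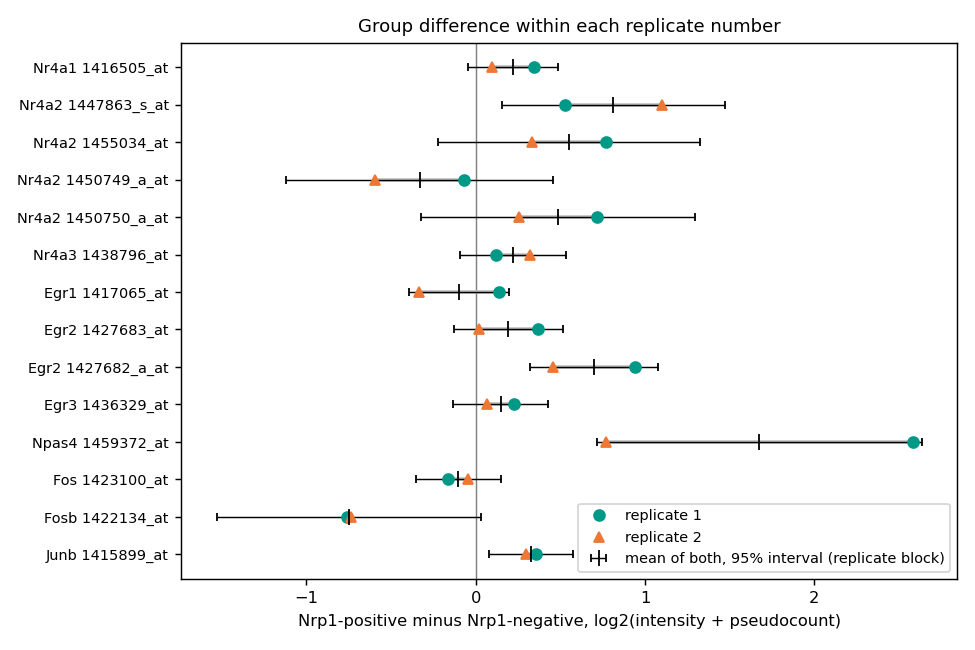
Nrp1-positive minus Nrp1-negative for the 14 tested probe sets on the scale of log2(intensity + 18.3), with replicate 1 as circles, replicate 2 as triangles, and the mean with its 95% interval from the limma fit with the replicate block as the vertical tick and bar. Most pairs lie right of 0, Egr1 lies on both sides of it, and the Npas4 pair is the widest, at 2.58 and 0.77.

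The replicate numbers were then compared with each other, with the group as a term in the model. Here limma called 7 of the 14 probe sets: Fos, Fosb and Junb were lower in replicate 2, and Egr2 (both probe sets), Egr3 and Npas4 were higher. The Nr4a receptors and Egr1 made up the 7 that were not called. Without the mean-variance trend 3 calls remained, those of Fos, Fosb and Junb, and the adjusted p was 0.0511 and 0.0867 for Egr2, 0.0892 for Egr3 and 0.125 for Npas4. Among all tested probe sets, 2562 (11.4%) were called lower and 2509 (11.1%) higher in replicate 2, and 3 and 4 member probe sets respectively. The median difference, replicate 2 minus replicate 1, was -0.06 over the members and -0.02 over all tested. The 2 arrays of a replicate number correlated at 0.976 and 0.982, those of a group at 0.933 and 0.946. The share of all tested probe sets without overlap between the replicate numbers is not given, so non-overlap of members below is a description only.

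Junb was at 8272 and 10600 in replicate 1 and at 1627 and 2002 in replicate 2, Nrp1-negative array first. Both replicate 1 arrays lay far above both replicate 2 arrays. The mean intensity was 5.20-fold higher in replicate 1, and the log2 difference of -2.36 (SE 0.11) was -2.33 and -2.39 within the groups, with a limma adjusted p of 1.6e-06. It ranked at percentile 0.20 of all tested probe sets.

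Fos, the partner of Jun proteins in AP-1, was at 13650 and 12190 in replicate 1 and at 4836 and 4693 in replicate 2. Its mean was 2.71-fold higher in replicate 1, and the log2 difference of -1.43 (SE 0.11) had a limma adjusted p of 3.37e-05. Fosb, a relative of Fos, was at 208.1 and 115.1 in replicate 1 and at 64.1 and 31.1 in replicate 2, a 3.39-fold difference in mean intensity with a log2 difference of -1.44 and an adjusted p of 0.0154. With no filter on low intensity the Fosb adjusted p was 0.0815, and its mean in replicate 2 was only 47.6, so its place among the tested probe sets rests on replicate 1. For both genes the replicate numbers did not overlap, and the difference within each group was nearly the same, -1.49 and -1.37 for Fos and -1.46 and -1.43 for Fosb.

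Egr2 and Egr3 moved the other way. Egr2 probe set 1427682_a_at was at 338.6 and 666.6 in replicate 1 and at 1049 and 1445 in replicate 2, which was 2.48-fold higher (log2 difference 1.34, limma adjusted p 0.000573). Its other probe set, 1427683_at, was at 748.2 and 969 in replicate 1 and at 1445 and 1464 in replicate 2, 1.69-fold higher (log2 difference 0.76, SE 0.15, adjusted p 0.00518). Both Egr2 probe sets placed both replicate 2 arrays above both replicate 1 arrays. Egr3 was at 1168 and 1368 in replicate 1 and at 1980 and 2076 in replicate 2, 1.60-fold higher (log2 difference 0.67, SE 0.13, adjusted p 0.00461), also without overlap. Npas4 was 2.37-fold higher in replicate 2 (log2 difference 1.56, adjusted p 0.0274, or 0.0994 with no filter), with 2.46 in Nrp1-negative and 0.65 in Nrp1-positive cells, and its replicate numbers overlapped, since the Nrp1-positive replicate 1 array at 161.8 lay above the Nrp1-negative replicate 2 array at 147.5.

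All 7 called probe sets had the same direction within the Nrp1-positive arrays alone, which leave out the array with conflicting labels, at 0.59 and 1.10 for Egr2 and 0.60 for Egr3. The remaining members were not called. Nr4a1 differed by -0.15 (95% interval -0.42 to 0.11, limma adjusted p 0.393) and Nr4a3 by 0.09 (adjusted p 0.674). Egr1 differed by -0.28 (adjusted p 0.163), with -0.04 in Nrp1-negative and -0.51 in Nrp1-positive cells. Its replicate numbers did not overlap either, though it was not called. The Nr4a2 probe sets differed by -0.72 (1447863_s_at, adjusted p 0.107), -0.42 (1450750_a_at), 0.09 (1455034_at) and 0.03 (1450749_a_at).

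**Figure D3:**
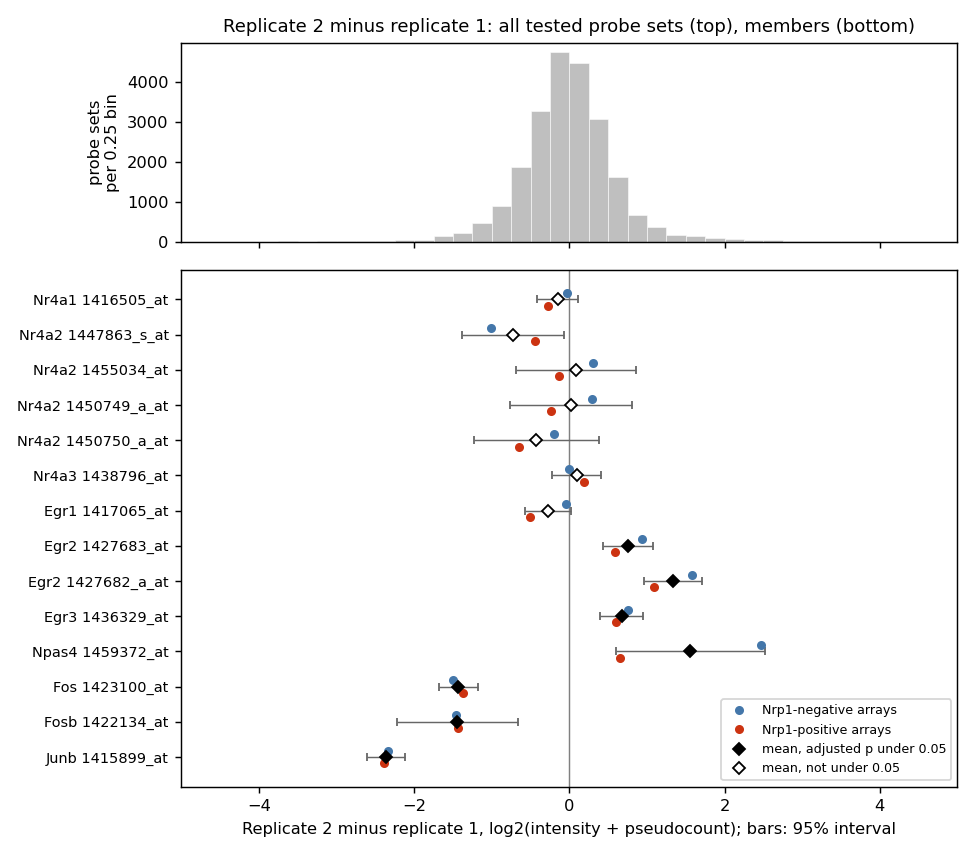
Replicate 2 minus replicate 1 on the scale of log2(intensity + 18.3): a histogram of the 22519 tested probe sets (top) and the 14 member probe sets (bottom), with Nrp1-negative arrays in blue, Nrp1-positive arrays in red and the mean with its 95% interval as a diamond, filled where the limma adjusted p was under 0.05. Filled diamonds lie left of 0 for Fos, Fosb and Junb and right of it for Egr2, Egr3 and Npas4.

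The pathways around these genes were described with 6 lists of 51 genes, of which 49 had a probe set and 43 were tested, 1 probe set a gene. In the group comparison, 18 of the 43 had both within-replicate differences above 0, against 28.1% of all tested probe sets. With the block, limma called 1 of the 43 higher in Nrp1-positive cells, 0 lower and 42 not at all (0.209% of all tested were called). The 1 was Dusp4, a nuclear phosphatase that switches off ERK, at 629.5 and 2520 in Nrp1-negative cells and 1584 and 3977 in Nrp1-positive cells, a difference of 0.98 with an adjusted p of 0.0473 (adjusted p 1 without the block). With the block and no mean-variance trend this call was lost too, since the smallest adjusted p of any probe set was 0.711. The other feedback genes with differences of one sign in both replicate numbers and the largest size were Dusp6 at -0.54 (adjusted p 0.351) and Dusp5 at 0.42 (adjusted p 0.461). Among 9 later TCR-induced genes 0 were called. The largest differences there were in Bhlhe40, a repressor induced by activation, at 0.92 (adjusted p 0.234) and Cd83, an activation marker, at 0.80 (adjusted p 0.148). None of the 7 tested NFAT and calcineurin genes, the 8 tested ERK, SRF, CREB and MEF2 inputs, the 4 tested genes among other AP-1 and ATF factors or the 2 tested genes among Egr4 and the Egr corepressors was called.

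In the replicate comparison 6 of the 43 pathway genes were called higher in replicate 2, 15 lower and 22 not. Over all tested probe sets the shares were 11.1% higher and 11.4% lower. With 1 probe set a gene, 1376 of 10204 genes were called higher and 1269 lower. Jun, the main partner of Fos, was at 9357 and 7121 in replicate 1 and at 681.4 and 615.1 in replicate 2, a log2 difference of -3.62 with a limma adjusted p of 4.4e-07. Of the 13 tested feedback and early response genes, 8 were called lower in replicate 2, among them Btg2 (-1.36), Ier2 (-1.20), Zfp36 (-0.94), Dusp1 (-0.91) and Dusp2 (-0.89), which are rapidly induced by many stimuli. Dusp4 (1.64) and the AP-1 family member Batf (0.68) were higher in replicate 2. Of the 9 later TCR-induced genes, 2 were called higher, Irf4 (1.37) and Icos (0.51), 2 were called lower, Tnfrsf9 (-0.51) and Cd69 (-0.48), and 5 were not called. The Egr corepressor Nab2 was lower, at -1.09.

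Other genes moved with the replicate numbers. Of 9 heat shock genes, 6 were called lower in replicate 2 (11.4% of all tested probe sets were), and 1, Hspe1, higher at 0.58. Hspa1a was at -3.74, with a mean of only 54.8 in replicate 2, and Hspa1b at -3.47. All 6 myeloid markers were called higher in replicate 2 (11.1% of all tested probe sets were). Their summed intensity was 1571 and 2286 in replicate 1 against 11430 and 10440 in replicate 2. Most of the replicate 2 sums came from Lyz2, at 8992 and 8504. Itgam, Itgax and Cd14 had replicate 1 means of only 50.14, 61.79 and 29.15, so their place among the tested probe sets rests on replicate 2. The summed intensity of the CD8 T and NK cell markers was 445.6 and 567.5 in replicate 1 and 797.8 and 787.4 in replicate 2. Of the 3 tested, limma called 1 higher, Cd8b1, at 230.7 and 266.1 in replicate 1 and 411.4 and 489.9 in replicate 2. Klrd1 (0.75) and Ncr1 (0.21) were not called. Cd8a, below the filter, went the other way, at 40.2 and 84.4 in replicate 1 and 19.4 and 72.3 in replicate 2. The B cell markers summed to 322.1 and 507.1 in replicate 1 and to 489.3 and 556.5 in replicate 2. Of the 5 with a probe set, 4 were below the filter. Most of each sum came from the 1 tested, Cd79b, at 178.7 and 277 in replicate 1 and 280.9 and 392.5 in replicate 2, which was not called. The erythroid markers summed to 17.2 to 94.1 on the 4 arrays, and no marker was listed at 0. Cd4 was at 2199 and 2261 in replicate 1 and at 723 and 755 in replicate 2, and Xist, the transcript of the inactive X chromosome, was at 4083 and 83.2 in replicate 1 and at 13060 and 13630 in replicate 2. Xist also set the replicate 1 arrays apart from each other, with Nrp1-positive minus Nrp1-negative at -5.34 in replicate 1 and 0.06 in replicate 2, and its part in the group differences was not tested. The part of these differences, and of the scale and the 3′ to 5′ ratios, in the replicate difference of the members was not tested. In bulk RNA such as this, fewer cells of a type and less RNA per cell cannot be told apart.

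**Figure D4:**
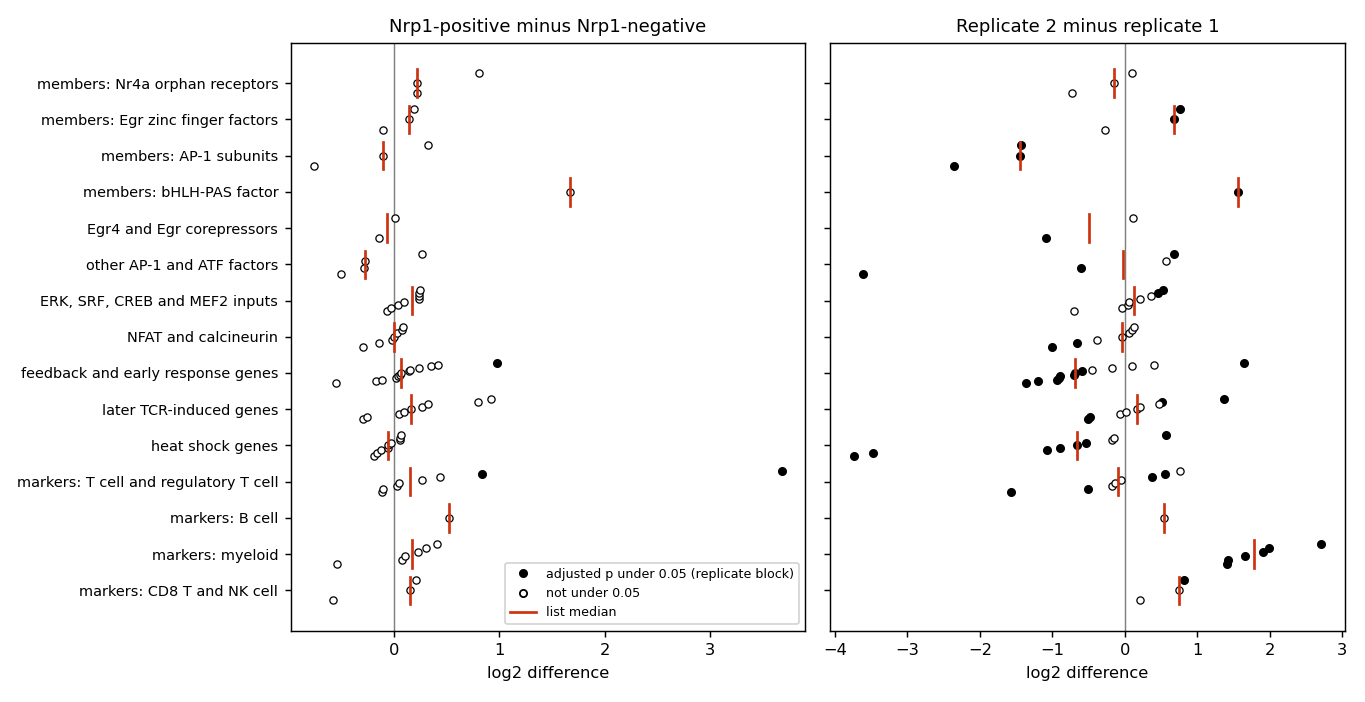
Differences on the scale of log2(intensity + 18.3) of every tested gene of each list, 1 probe set a gene, for Nrp1-positive minus Nrp1-negative (left) and replicate 2 minus replicate 1 (right), filled where the limma adjusted p was under 0.05 (left, with the replicate block), with the list median as a red line. On the left the filled points among the pathway lists are Dusp4 alone, at 0.98, and on the right Fos, Fosb and Junb lie left of 0 while all 6 myeloid markers lie right of 0.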

How the data were processed

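Per the labels' protocols, RNA was extracted with Trizol, labelled with biotin and hybridised by the standard Affymetrix protocol. The values the authors deposited are linear probe set intensities. The submitters' processing notes name MAS5, without a version or settings. Of 45101 probe sets, 64 controls were left out, 34945 were listed with 1 gene, 932 with several and 9160 with none.

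Arrays were brought to one 2% trimmed mean (500.003), and log2(intensity + 18.3) was taken, the pseudocount being 0.25 of the mean array median. Probe sets at or above percentile 50 of the mean over the 4 arrays were tested with limma 3.58.1 (R 4.3.3), by two-sided tests with eBayes following the mean-variance trend, and Benjamini-Hochberg adjustment over all 22519 and calls at 0.05. The group comparison was fitted without and with the replicate number as a block, and the replicate comparison with the group as a term (1 residual and 9.26 prior degrees of freedom). The script was tested on simulated data. Same-numbered arrays deviated from their group means together (correlation 0.694), but only 2 pairs exist and no label states what they share. Where several probe sets name a listed gene, that of the highest mean was used. All members are named; of the other lists, those called in the group comparison and up to 3 with the largest difference of one sign, whereas names in the replicate comparison were chosen after their values were seen. The members and lists were chosen with earlier results of these data known. Alternatives changed the normalisation, pseudocount, filter, variance prior, probe set per gene, block, arrays left out and the group of the array with conflicting labels. Intervals are from the fit with both the group and the replicate number as terms. Those of the group difference leave out the gap between the replicate numbers. They rest on 1 residual degree of freedom and on a prior drawn from all tested probe sets. The SE of the group difference was 0.11 with the block and 1.03 without it for Junb, 0.11 and 0.64 for Fos, and 0.12 and 0.19 for Nr4a1. The number of arrays, 4, limits the precision. Figures were drawn with matplotlib 3.10.9.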

Additional observations from a re-analysis of the deposited data

How the results depend on the processing

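No member was called between Nrp1-positive and Nrp1-negative cells under any alternative run. Over all probe sets, 0 were called without the block, 47 with the replicate block, 133 with the replicate block and quantile normalisation, 0 with the replicate block and no mean-variance trend, and 0 to 3 when 1 array was left out, the 3 without Nrp1-negative replicate 2. Between the replicate numbers, 5071 probe sets were called, 791 without the mean-variance trend and 2645 with 1 probe set a gene. Of the 7 member calls there, 3 remained without the trend (Fos, Fosb and Junb), whereas Egr2 (adjusted p 0.0867 for 1427683_at and 0.0511 for 1427682_a_at), Egr3 (0.0892) and Npas4 (0.125) did not pass. With no filter 5 remained, without Npas4 (0.0994) and Fosb (0.0815). No test was possible for the replicate comparison with 1 array left out, because no residual degree of freedom remains. With 1 array left out, the group difference spanned -0.36 to 0.16 for Egr1, -0.27 to 0.66 for Egr2 1427683_at, -0.092 to 1.49 for Egr2 1427682_a_at, -0.23 to 0.52 for Egr3, -0.85 to 0.64 for Fos and -0.87 to 1.52 for Junb. It kept its sign for Nr4a1 (0.08 to 0.36), Nr4a3 (0.12 to 0.32), Npas4 (0.44 to 2.91), Fosb (-1.48 to -0.022) and Nr4a2 (0.31 to 1.32 for 1447863_s_at, 0.40 to 0.70 for 1455034_at, 0.16 to 0.81 for 1450750_a_at and -0.47 to -0.19 for 1450749_a_at). The replicate difference within 1 group spanned -0.13 to 0.31 for Nr4a2 1455034_at, -0.24 to 0.29 for Nr4a2 1450749_a_at and -0.0088 to 0.19 for Nr4a3. When the array with conflicting labels was moved to the Nrp1-positive group, the group difference was -0.49 and -0.59 for Egr2, -0.40 for Egr3, -0.53 for Npas4, 0.93 for Fos and 0.47 for Fosb. The group fits with 1 array left out or moved had no block. Their groups held unequal numbers of replicate 1 and replicate 2 arrays, so these differences also contain part of the replicate difference. Within the replicate numbers, Junb differed by 0.36 and 0.30 and Fos by -0.16 and -0.04. Other causes were not tested. Npas4 on 1 array lay below the pseudocount, so its difference moved with that choice, from 1.04 to 2.09.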

Other observations

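The 3 members with the widest range over the 4 arrays, each by its brightest tested probe set, were Npas4 (range 3.23 on the log2 scale), Junb (2.69) and Fosb (2.20). The genes nearest to each were found by the Euclidean distance between centred log2 profiles over the 4 arrays, among 10204 genes with 1 tested probe set each. Nearest to Npas4 were Tktl1 at 0.11, Actg2 at 0.30 and Zan at 0.37. Tktl1 was at 33.1 and 260.7 in Nrp1-negative cells and 260.4 and 455.7 in Nrp1-positive cells, replicate 1 first, and unlike Npas4 its groups overlapped. Nearest to Junb were Zbtb7a at 0.09, Mpst at 0.24 and the chemokine receptor Cxcr4 at 0.26, and Cxcr4 was at 3806 and 5473 in replicate 1 and at 955.6 and 1000 in replicate 2. Nearest to Fosb were Igfbp7 and Sdr39u1, both at 0.29, and Bambi at 0.31. How common profiles this near are, with only 4 arrays and this many genes, was not counted. These distances are descriptions with no test.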
